A study of Mus musculus with 24 samples.

Results

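The caspase genes Casp1, Casp2, Casp4, Casp6, Casp8, Casp9 and Casp12, were followed across the 24 arrays of the series. They were chosen by gene symbol, and each was represented by 1 probe and 1 spot, so 7 of the 41174 probes on the array, and 7 of its 27962 gene names, carry the results. Probes of other caspases were not analysed here. The cells in every group were immortalized mouse embryonic fibroblasts (MEFs) with the genotype Ku70-/-, which lack the gene Xrcc6 and with it a subunit of the complex that binds DNA double-strand breaks. No group of wild-type cells was included, so the loss of Ku70 was shared by controls and treated cells alike.

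The first set held 15 arrays in 5 groups. Its untreated control was labelled 4 hr. KBrO3, an oxidizing agent that damages DNA bases, was given at 20 mM for 1 hr and followed by 3 or 23 hr of repair, which gave the KBrO3 groups at 4 and 24 hr. In the co-exposure groups the cells received bisphenol A (BPA), a plasticizer monomer, at 150 µM before, during and after the same KBrO3 treatment, again to 4 and 24 hr. The second set held 9 arrays in 3 groups, namely its own untreated control and 150 µM BPA alone at 4 and 24 hr. Each group had 3 arrays from independent experiments. No array was labelled as an untreated control at 24 hr.

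Caspases are cysteine proteases that cut their targets after aspartate and are made as inactive precursors. Initiator caspases are switched on by assembly on a platform. Casp9 is activated on the apoptosome once cytochrome c leaves the mitochondria, Casp8 below death receptors, and Casp2 on the PIDDosome, a complex linked to DNA damage. Effector caspases such as Casp6, which cleaves nuclear lamins, act downstream. The inflammatory caspases Casp1 and Casp4 cleave gasdermin D and open the cell membrane in pyroptosis. Casp1 also matures interleukin precursors on inflammasomes, and Casp4 binds bacterial lipopolysaccharide. Casp12 belongs to the same family and has been linked to the endoplasmic reticulum. Arrays measure the transcripts of these enzymes, not their activation by cleavage.

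Each value rested on a single 60-base probe. No other probe on the array shared a run of 16 or more bases with any of the 7. The probes of Casp1, the member with the greatest decrease, and of Casp8, the member whose course differed from the others, are given as the array files list them.
Casp1 probe: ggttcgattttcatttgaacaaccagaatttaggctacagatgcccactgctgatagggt
Casp8 probe: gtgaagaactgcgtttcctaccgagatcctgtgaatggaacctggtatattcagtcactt

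Casp1, Casp4 and Casp12 were consecutive protein-coding genes on chromosome 9 in the RefSeq annotation of GRCm38.p6, in that order. The other members lay apart, Casp8 on chromosome 1 next to Cflar, which encodes a caspase-8 regulator, Casp6 on chromosome 3, Casp9 on chromosome 4 and Casp2 on chromosome 6. All 7 symbols matched the RefSeq promoter table of that build, in which a window spans 250 bases before to 50 after a gene's start. The windows differed in base composition. Those of Casp2, Casp9 and Casp6 held 26, 28 and 16 CG dinucleotides and 2, 4 and 3 copies of the GC box GGGCGG on either strand, a motif present in 35.7% of the 32841 RefSeq windows. Those of Casp8, Casp1, Casp4 and Casp12 held 5, 3, 5 and 3 CG dinucleotides and no GC box, against a median of 7 CG dinucleotides over all windows. The motif matches are descriptions of letters and do not show binding.

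The 250 bases before the start are printed for 3 members with different motifs, because Casp9 was the member that KBrO3 lowered most at 4 hr, Casp4 was the member that BPA raised, and Casp12 lies beside Casp4. All are on the plus strand of GRCm38.p6, and capitals mark the matches. In the Casp9 sequence (chr4:141793362-141793611) they mark 4 GC boxes. In the Casp4 sequence (chr9:5308599-5308848) they mark a run that matches the NF-kB consensus, which 4.51% of windows hold. In the Casp12 sequence (chr9:5345226-5345475) they mark 2 copies of the GAS motif TTCNNNGAA, held by 8.30% of windows, and between them TGACNNNGC, the core of the antioxidant response element, held by 12.4%.
Casp9 upstream: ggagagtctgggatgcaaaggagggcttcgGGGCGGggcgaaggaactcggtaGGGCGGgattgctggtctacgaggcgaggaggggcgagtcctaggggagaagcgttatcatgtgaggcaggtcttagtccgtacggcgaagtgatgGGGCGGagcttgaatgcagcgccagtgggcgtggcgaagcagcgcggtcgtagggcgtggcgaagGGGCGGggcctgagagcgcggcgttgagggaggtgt
Casp4 upstream: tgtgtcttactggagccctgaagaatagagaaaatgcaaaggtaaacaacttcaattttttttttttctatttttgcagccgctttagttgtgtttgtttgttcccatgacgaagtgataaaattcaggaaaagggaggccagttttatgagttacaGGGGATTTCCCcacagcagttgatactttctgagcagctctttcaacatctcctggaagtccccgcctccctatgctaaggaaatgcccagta
Casp12 upstream: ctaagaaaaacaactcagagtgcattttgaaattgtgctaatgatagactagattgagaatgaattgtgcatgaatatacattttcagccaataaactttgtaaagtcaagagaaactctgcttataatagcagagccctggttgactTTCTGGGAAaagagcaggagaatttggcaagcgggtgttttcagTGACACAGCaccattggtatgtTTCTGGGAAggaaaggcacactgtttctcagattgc

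No window of the 7 genes held TATAAA, the AP-1 motif TGACTCA or the CRE motif TGACGTCA, or matches to the ISRE or p53 half-site consensus on either strand.

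All 7 probes were well above background on all 24 arrays, and no spot was flagged as an outlier by the scanner software. Among spots other than controls, the first set had 57.7 to 68.1% well above background and the second 76.4 to 79.4%. The precision differed between the sets. The median residual standard deviation over the probes tested was 0.107 on the log2 scale for the first set against 0.340 for the second, and 3 arrays per group limit the precision in both. Levels are given as log2 processed signal after subtraction of the array's 75th percentile, and a change was called when limma's Benjamini-Hochberg adjusted p over all probes tested in the set was below 0.05. Of 10 fibroblast markers, 9 were above background on every array of the first set and 10 on every array of the second. Of 8 leukocyte markers, 3 and 4 were above background on every array of the first and second set, and the defining Ptprc and Spi1 were above it on none. The probe for Xrcc6 was above background on all arrays, and whether it lies inside the deleted part of the gene is not given in the sources used here.

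**Figure D1:**
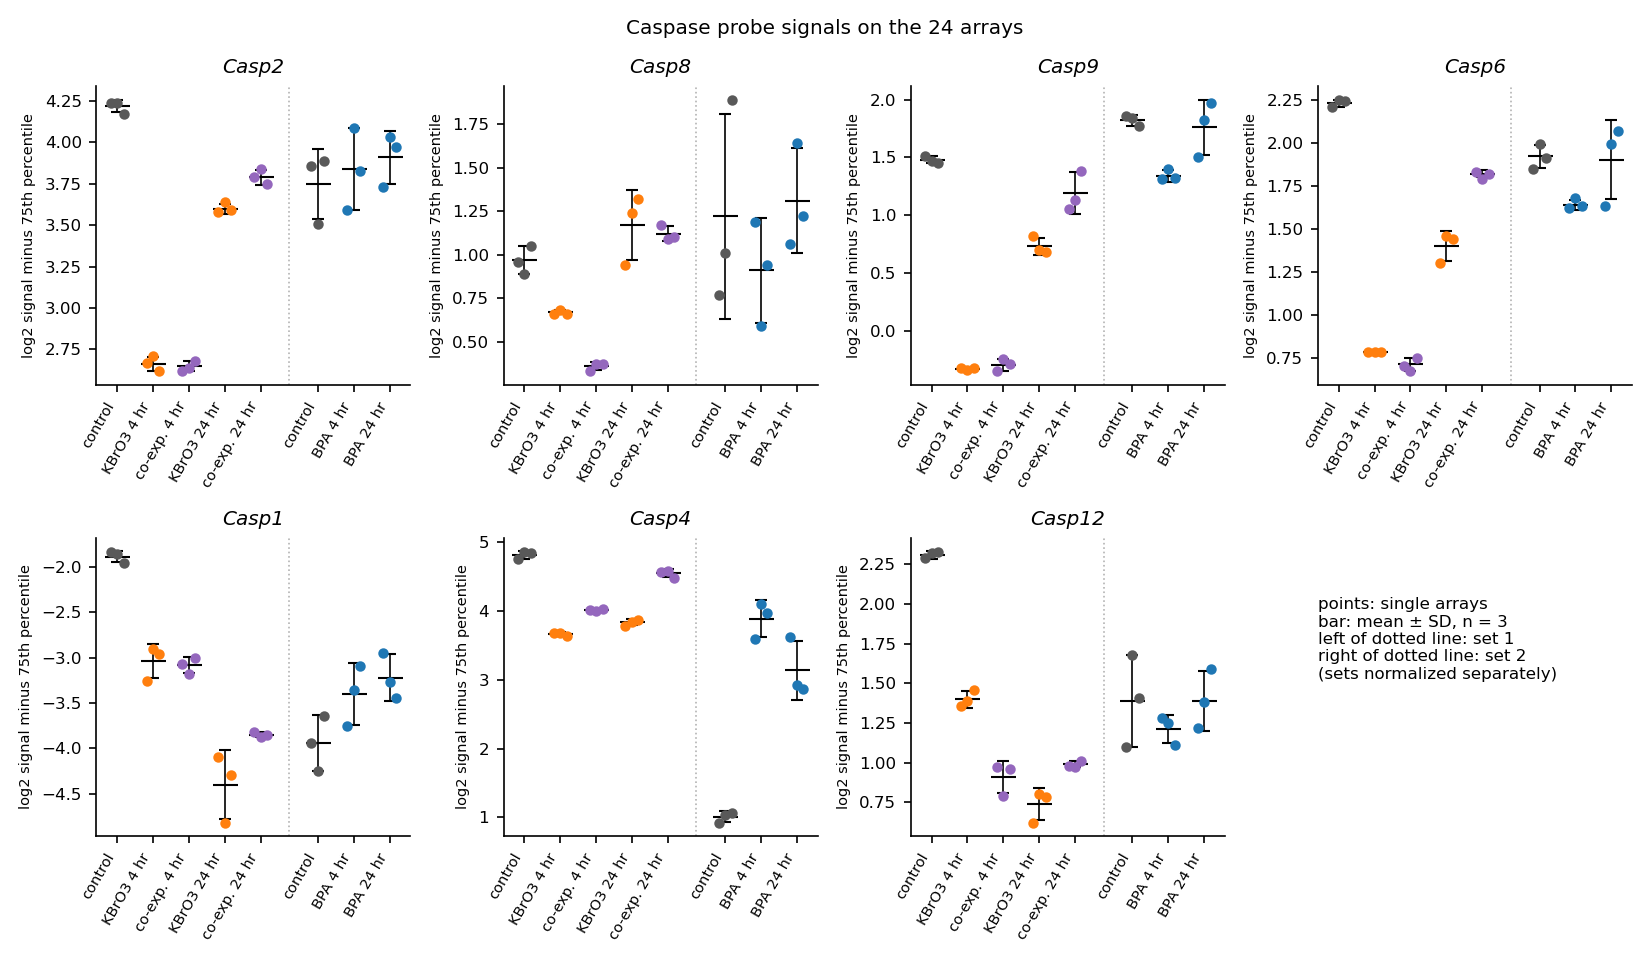
Log2 processed signal minus the array's 75th percentile for each caspase probe on single arrays, with the mean and SD of each group (n = 3). In the first set, left of the dotted line, the control arrays of every member but Casp8 lie above all KBrO3 and co-exposure arrays. In the second set, right of the line, the BPA arrays of Casp4 lie above their control arrays.

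KBrO3 alone lowered the transcripts of all 7 caspases at 4 hr. The initiators Casp9 and Casp2 and the effector Casp6 fell most, 3.49-fold, 2.94-fold and 2.74-fold. The inflammatory members Casp1, Casp4 and Casp12 fell 2.23-fold, 2.21-fold and 1.88-fold, and Casp8 fell 1.23-fold. Of all probes tested in this comparison, 35.8% were called lower. The median log2 fold change of the 7 members was -1.16, beside 0.06 for all probes. These medians were -1.18 and -0.45 with normexp background correction.

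Casp9, the initiator of the mitochondrial pathway, measured 1.51, 1.47 and 1.45 on the control arrays and -0.32, -0.34 and -0.32 on the KBrO3 arrays at 4 hr. The groups were far apart relative to their spread, and the log2 fold change was -1.80 (SE 0.073, limma adjusted p = 3.32e-10). Only 3.74% of probes had a lower log2 fold change. Casp2 went from 4.24, 4.24 and 4.17 to 2.67, 2.71 and 2.62, a log2 fold change of -1.56 (SE 0.040, limma adjusted p = 6.17e-12). Casp6 fell from 2.21, 2.25 and 2.24 to 0.78 on each of the 3 arrays, by 1.45 on the log2 scale (SE 0.043, limma adjusted p = 2.28e-11). For these 3 genes no treated array came near a control array.

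Casp1 stood at -1.84, -1.86 and -1.96 in the controls and at -3.26, -2.91 and -2.96 after KBrO3 at 4 hr, with a log2 fold change of -1.16 (SE 0.15, limma adjusted p = 1.68e-05). Casp4 measured 4.76, 4.86 and 4.84 in the controls and 3.69, 3.69 and 3.64 after KBrO3, and its log2 fold change was -1.15 (SE 0.042). Casp12 measured 2.29, 2.32 and 2.33 in the controls and 1.36, 1.39 and 1.46 after KBrO3, a log2 fold change of -0.91 (SE 0.059). All 3 neighbouring genes thus had separate groups. Casp8 changed least, from 0.96, 0.89 and 1.05 to 0.66, 0.68 and 0.66 (log2 fold change -0.30, SE 0.079, limma adjusted p = 0.00428). Casp8 was at -0.16 with normexp and lost its call (adjusted p = 0.251), where the median of all probes was -0.45.

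With the stricter thresholds named in the study's methods, a Bonferroni p below 0.01 and a fold change beyond 1.5, 5 members were lower at 4 hr after KBrO3 (Casp2, Casp9, Casp6, Casp4 and Casp12), where 14.1% of all probes were. Control replicate 3 shared a slide with all 3 KBrO3 arrays at 4 hr. Against that control array alone the differences ran from -0.39 for Casp8 to -1.77 for Casp9, and with the slide as a fixed block all 7 were still called (largest limma adjusted p = 0.000772, for Casp1).

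Co-exposure at 4 hr also lowered all 7 members, where 37% of all probes were called lower. Casp9, Casp2 and Casp6 fell 3.41-fold, 2.97-fold and 2.87-fold. Casp12 fell 2.65-fold, Casp1 2.29-fold, Casp4 1.74-fold and Casp8 1.53-fold. The members' median log2 fold change was -1.40, beside 0.08 for all probes, and with normexp these medians were -1.22 and -0.44. Under the stricter thresholds 5 members were lower (Casp2, Casp9, Casp6, Casp4 and Casp12), where 16.3% of probes were. The comparisons of KBrO3 and co-exposure share the control arrays, and the co-exposure arrays at 4 hr shared no slide with a control, so the slide and the treatment cannot be told apart there.

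**Figure D2:**
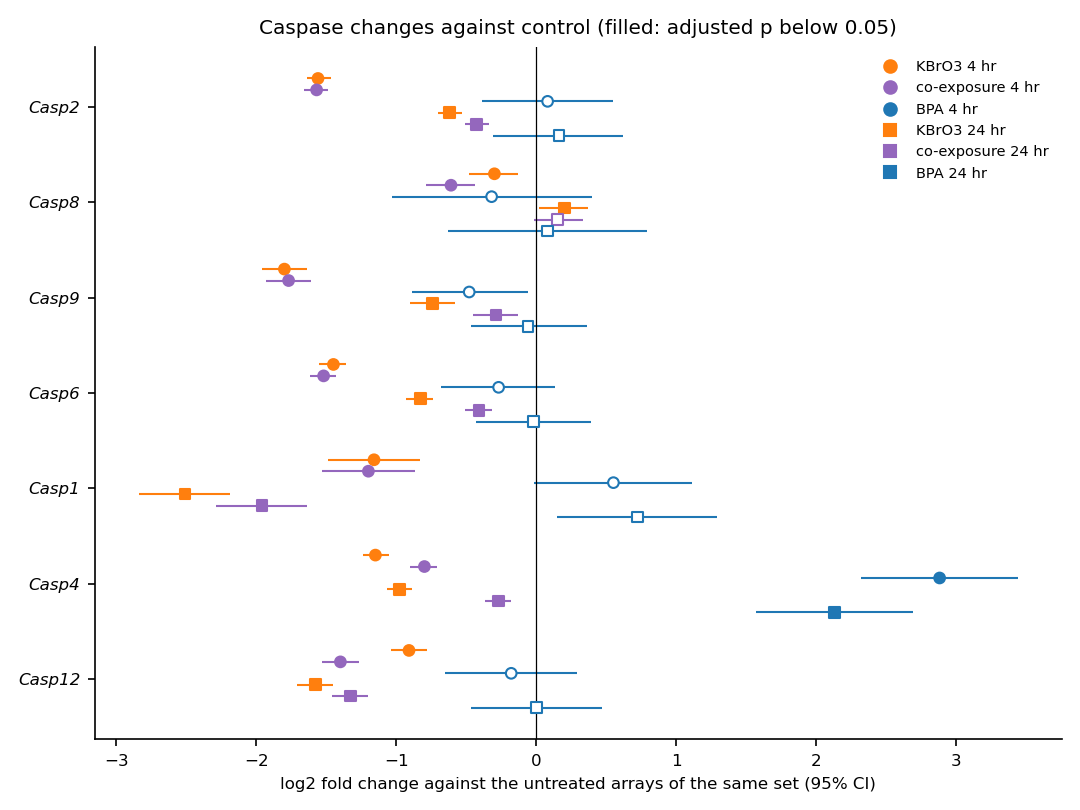
Log2 fold change of each caspase against the untreated arrays of its own set, with 95% confidence intervals; circles are 4 hr and squares 24 hr, and filled symbols passed an adjusted p below 0.05. Under the scaling used here KBrO3 and co-exposure values lie left of 0 for all members but Casp8 at 24 hr, and the only filled BPA symbols are those of Casp4, at 2.88 and 2.13.

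At 24 hr after KBrO3 the members had parted. Casp1 was 5.71-fold and Casp12 2.99-fold below control, further down than at 4 hr. Casp4, Casp6, Casp9 and Casp2 were 1.97-fold, 1.78-fold, 1.67-fold and 1.53-fold below control. These 6 members were called lower, as were 34% of all probes. The median log2 fold change of all 7 members was -0.83, beside -0.02 for all probes. These medians were -0.53 and -0.51 with normexp background correction, so the members then stood near all probes. With normexp background correction Casp2 was at -0.29 on the log2 scale and lost its call (limma adjusted p = 0.109). Casp8 was called higher by 1.15-fold, as were 32.1% of probes.

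The 24 hr groups were set against controls labelled 4 hr, so the treatment and the longer time in culture cannot be told apart. Neither 24 hr group shared a slide with a control array, nor KBrO3 at 24 hr with KBrO3 at 4 hr, so the slide cannot be told apart from these differences either. The correlation of arrays on a slide was 0.634 in the first set. With the slide as a random block Casp1 stood at -2.48 (limma adjusted p = 2.92e-06) at 24 hr after KBrO3 and at -1.85 (adjusted p = 2.82e-05) at 24 hr of co-exposure. The summed level of the 10 fibroblast markers, on the log2 scale, was 10.41 to 10.51 in the controls, 10.05 to 10.34 in the 4 hr groups, 8.96 to 9.09 at 24 hr after KBrO3 and 8.58 to 8.76 at 24 hr of co-exposure. Its part in the caspase values was not tested. In RNA from whole cultures, fewer cells of a kind and less transcript per cell cannot be told apart.

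Casp1 measured -4.09, -4.82 and -4.29 at 24 hr after KBrO3, with a log2 fold change against control of -2.51 (SE 0.15, limma adjusted p = 2.39e-08), and 1.20% of probes lay lower. The signal itself fell from 281, 307 and 231 intensity units in the controls to 82.6, 46.2 and 62.8. Casp12 measured 0.62, 0.80 and 0.78, a log2 fold change of -1.58 (SE 0.059). Every array of these 2 genes lay below all KBrO3 arrays at 4 hr. The direct comparison of 24 with 4 hr called both lower, Casp1 by a log2 difference of -1.36 and Casp12 by -0.67, where 42.3% of probes were called lower.

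Casp9 measured 0.82, 0.70 and 0.68, Casp2 3.58, 3.64 and 3.59, and Casp6 1.30, 1.46 and 1.44 at 24 hr after KBrO3. All of these arrays lay between the 4 hr arrays and the controls. From 4 to 24 hr the log2 differences were 1.06 for Casp9, 0.94 for Casp2, 0.62 for Casp6, 0.50 for Casp8 and 0.17 for Casp4. All 5 were called higher at 24 hr, where 33.1% of probes were. Casp4 lost its call with normexp (0.23, limma adjusted p = 0.251). It moved least, from a mean of 3.67 ± 0.030 to 3.84 ± 0.041 (SD, n = 3 each).

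Casp8 measured 0.94, 1.24 and 1.32 at 24 hr after KBrO3, which overlapped the controls at 0.89 to 1.05. Its log2 fold change of 0.20 (SE 0.079) had a limma adjusted p of 0.0437. With the slide as a random block it was 0.16 (adjusted p = 0.161). It was not called when only the arrays compared entered the fit (adjusted p = 0.176), without a filter on dim probes (0.0724) or with a replicate block (0.0508), and it lost the call without control replicate 1 or 2 or KBrO3 replicate 2 or 3, with values of 0.12 to 0.19. Under the stricter thresholds 5 members were lower at this time (Casp1, Casp12, Casp4, Casp6 and Casp2), where 9.41% of probes were.

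At 24 hr of co-exposure, Casp1 was 3.90-fold and Casp12 2.51-fold below control. Casp2, Casp6, Casp9 and Casp4 were 1.34-fold, 1.33-fold, 1.22-fold and 1.21-fold below it, the last 2 with a sign that turned under another scaling, so 6 members were called lower, as were 37% of all probes. Casp8 differed from control by 0.15 on the log2 scale (95% interval -0.02 to 0.33, limma adjusted p = 0.109). It was called higher with arrays scaled to their median (0.47, adjusted p = 0.00491) and with normexp background correction (0.31, adjusted p = 0.0412). Only Casp1 and Casp12 were lower under the stricter thresholds, which 11.1% of probes passed.

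Casp1 measured -3.82, -3.88 and -3.85 and Casp12 0.98, 0.97 and 1.01 at 24 hr of co-exposure, with log2 fold changes of -1.96 and -1.33. The spread of these arrays was small against the distance to control. Quantile normalization kept the call of the 4 smaller decreases, with values of -0.42 for Casp6, -0.35 for Casp2, -0.28 for Casp9 and -0.22 for Casp4. Scaling to the array median moved the median of all probes from -0.07 to 0.25, and the members with it. Casp2 and Casp6 stood at -0.11 and -0.10 without a call, and Casp9 and Casp4 turned to 0.03 and 0.05, against -0.29 and -0.27 as first given. All 4 stayed below that median. With normexp background correction, where the median of all probes was -0.52, Casp4 turned to 0.04 and the other 3 lost their call at -0.04 to -0.16. All 4 lay above the median of all probes in that setting, and the median of the members was -0.10.

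Between 4 and 24 hr of co-exposure, Casp9, Casp2, Casp6, Casp8 and Casp4 rose by log2 differences of 1.48, 1.15, 1.11, 0.76 and 0.53, where 32.8% of probes were called higher. Casp1 fell by 0.77, where 48.4% of probes were called lower. The co-exposure groups at 4 and 24 hr shared no slide, so slide and time cannot be told apart here. A fixed slide block links them only through KBrO3 replicate 1 at 24 hr, which lay on the slide of the 4 hr arrays. With the slide as a fixed block Casp1 stood at -0.30 with a limma adjusted p of 0.331. Casp12 was at 0.08 (95% interval -0.05 to 0.21). It was called higher with quantile normalization (0.15, limma adjusted p = 0.0342) and with arrays scaled to their median (0.54, adjusted p = 0.000308), and stood at -0.11 with the slide as a fixed block (adjusted p = 0.354).

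**Figure D3:**
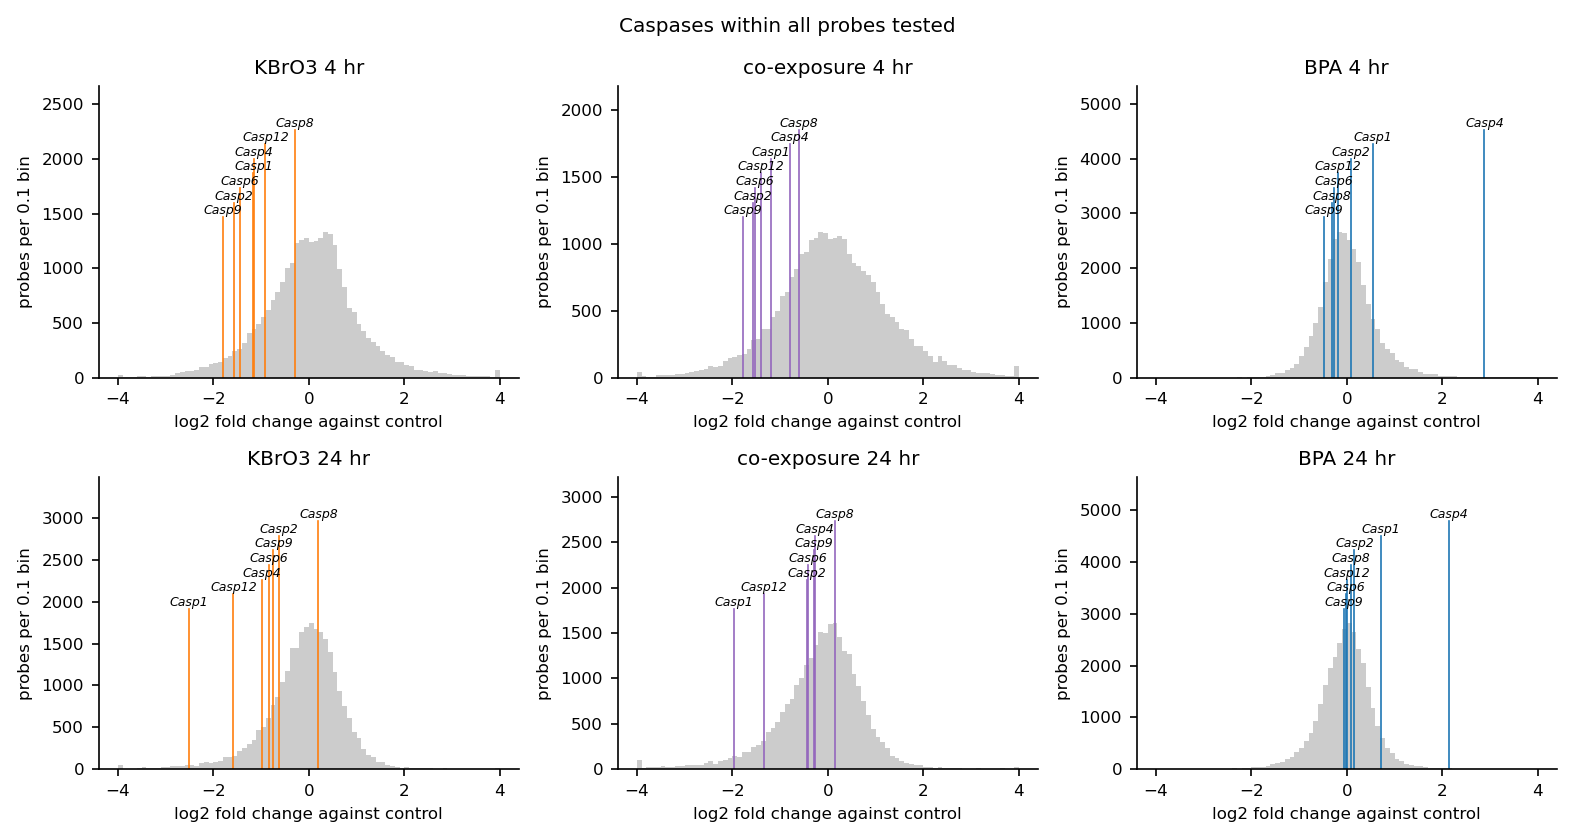
Histograms of the log2 fold change against control for all probes tested, in bins of 0.1 with values beyond 4 in the outer bins, and lines at the caspases. The caspases lie left of the centre for KBrO3 and co-exposure at 4 hr, Casp1 lies in the left tail at 24 hr, and Casp4 alone lies in the right tail for BPA.

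BPA alone gave a different picture. Casp4 rose 7.36-fold at 4 hr and 4.37-fold at 24 hr, and no other member was called at either time. At 4 hr 2.82% of probes were called higher, and at 24 hr 1.39%. Casp4 lay above 99.8% of all probes in log2 fold change at both times.

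Casp4 measured 0.92, 1.04 and 1.07 on the control arrays of the second set. It measured 3.59, 4.11 and 3.98 after 4 hr of BPA, and 3.63, 2.92 and 2.87 after 24 hr. In signal units the controls stood at 2240, 2530 and 2170, the 4 hr arrays at 18700, 21500 and 19400, and the 24 hr arrays at 15000, 8290 and 10800. No BPA array came near a control array, and the spread at 24 hr was wider than in the controls. The log2 fold changes were 2.88 (SE 0.25, limma adjusted p = 0.000734) and 2.13 (SE 0.25, adjusted p = 0.00448).

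The Bonferroni p of Casp4 was 0.0257 at 4 hr and 0.339 at 24 hr. Slides were shared in part. On the slide that held control replicate 1 and 4 hr replicates 1 and 3 the difference was 2.86. On the 2 slides with a control and a 24 hr array each it was 2.59 and 1.85. With the slide as a fixed block, where no probe on the array was called at either time, Casp4 had limma adjusted p-values of 0.180 and 0.0831 with values of 2.86 and 2.22. With normexp background correction the values were 2.76 (adjusted p = 0.0532) and 2.10 (adjusted p = 0.166).

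The other 6 members had intervals that leave room for moderate changes. Casp1 was at 0.55 at 4 hr (95% interval -0.02 to 1.11, limma adjusted p = 0.287) and at 0.72 at 24 hr (0.15 to 1.29, adjusted p = 0.171). Its arrays read -3.94, -4.25 and -3.64 in the controls, -3.75, -3.36 and -3.09 at 4 hr and -2.95, -3.27 and -3.45 at 24 hr. The controls and the 4 hr arrays overlapped, and the 24 hr arrays lay above the controls. With normexp background correction the 24 hr value of Casp1 turned to -0.20 (adjusted p = 0.866). Casp9 was at -0.48 at 4 hr (-0.89 to -0.06, adjusted p = 0.197), with controls of 1.86, 1.84 and 1.77 above the BPA arrays at 1.31, 1.40 and 1.32. Casp8 was least certain, at -0.32 (-1.03 to 0.40), with controls from 0.77 to 1.89, and at 0.02 without control replicate 3. Between 24 and 4 hr of BPA no member was called by limma, where 3.79% of probes were, and 2 members had an unadjusted p below 0.05.

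The untreated arrays of the 2 sets differed in Casp4 itself. The control mean was 4.82 ± 0.055 for the first set and 1.01 ± 0.080 for the second (SD, n = 3 each), a log2 difference of 3.81 that exceeded that of 99.8% of the 27162 probes tested in both sets. Casp1 differed by 2.06 and Casp12 by 0.92, while the initiators and Casp6 differed by -0.35 to 0.46. The middle 95% of probes ran from -1.60 to 1.71. The sets were processed with different software versions and normalized separately, so a difference between cultures and one between measurements cannot be told apart. On the log2 scale the summed level of the leukocyte markers was 1.59 to 1.65 in the controls of the first set and 0.18 to 0.55 in those of the second, and that of the fibroblast markers 10.41 to 10.51 and 9.04 to 9.39. Their part in these differences was not tested. After BPA, Casp4 reached 3.59 to 4.11 at 4 hr, still under the 4.76 to 4.86 of the first set's controls.

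What BPA added to KBrO3 was read from co-exposure against KBrO3 alone at the same time. At 4 hr, Casp4 was 1.27-fold higher, Casp12 1.41-fold lower and Casp8 1.24-fold lower with BPA. Of all probes 29.2% were called higher and 28.6% lower. Casp2, Casp9, Casp6 and Casp1 lay between -0.07 and 0.03. The KBrO3 arrays at 4 hr lay on one slide and the co-exposure arrays at 4 hr on another, so slide and BPA cannot be told apart at that time, and with normexp background correction none of the 3 members was called there, with values of 0.34 for Casp4, -0.36 for Casp12 and -0.24 for Casp8. The log2 summed level of the leukocyte markers was 1.55 to 1.64 on the KBrO3 arrays and 1.21 to 1.26 on the co-exposure arrays at 4 hr, and its part in these differences was not tested. At 24 hr, 6 members were called higher with BPA, where 23.1% of probes were.

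Casp4 measured 4.02, 4.00 and 4.03 with co-exposure against 3.69, 3.69 and 3.64 with KBrO3 at 4 hr, and 4.57, 4.59 and 4.48 against 3.79, 3.85 and 3.87 at 24 hr. The groups did not overlap at either time. The log2 differences were 0.34 (SE 0.042, limma adjusted p = 3.43e-05) and 0.71 (SE 0.042, adjusted p = 9.06e-08). With arrays scaled to their median the 4 hr difference was 0.20 (adjusted p = 0.0745). Casp4 was the member with the highest difference at both times, and at 24 hr 96.1% of probes lay lower.

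Casp12, beside Casp4 on the chromosome, measured 0.97, 0.79 and 0.96 with co-exposure against 1.36, 1.39 and 1.46 with KBrO3 at 4 hr, and 0.98, 0.97 and 1.01 against 0.62, 0.80 and 0.78 at 24 hr. Its difference therefore changed sign, from -0.49 to 0.25 on the log2 scale, and the arrays did not overlap at either time. Casp8 measured 0.33, 0.37 and 0.37 against 0.66, 0.68 and 0.66 at 4 hr, a difference of -0.31. With the slide as a random block it was -0.13 (limma adjusted p = 0.354), so that call rested on how slides were treated. At 24 hr Casp8 was at -0.05 (95% interval -0.22 to 0.13).

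At 24 hr the log2 differences of the other called members were 0.55 for Casp1, 0.45 for Casp9, 0.42 for Casp6 and 0.19 for Casp2. Casp1 lost its call when only the arrays compared entered the fit (limma adjusted p = 0.0765). With normexp it was at 0.37 (adjusted p = 0.448), and Casp2, Casp6 and Casp12 lost theirs as well, at 0.19, 0.37 and 0.24. Slide 4 held 2 arrays of each group, and on it the differences were 0.72 for Casp4, 0.71 for Casp1, 0.39 for Casp9, 0.36 for Casp6, 0.20 for Casp2 and 0.18 for Casp12. All 6 kept their call with the slide as a fixed block, and Casp8 was then called lower at -0.15 (limma adjusted p = 0.0178).

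**Figure D4:**
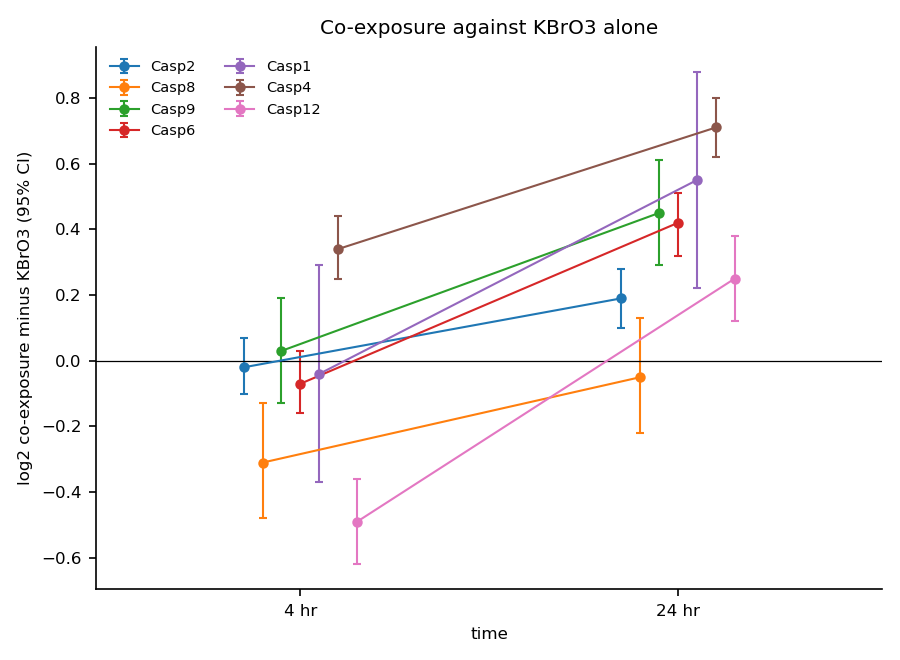
Log2 difference between co-exposure and KBrO3 alone at 4 and 24 hr for each caspase, with 95% confidence intervals. Every line rises from 4 to 24 hr, from between -0.49 and 0.34 to between -0.05 and 0.71. Casp12 goes from -0.49 to 0.25.

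The change of that difference from 4 to 24 hr was tested directly. It was called above 0 for 6 members, where 25.6% of probes were. The values were 0.74 for Casp12, 0.59 for Casp1, 0.49 for Casp6, 0.42 for Casp9, 0.36 for Casp4 and 0.21 for Casp2, and Casp8 was at 0.26 (limma adjusted p = 0.0692). The median of the members was 0.42, beside -0.06 for all probes. With normexp background correction Casp12 was called (0.60, limma adjusted p = 0.0483) and the other 6 were not, at 0.18 for Casp8 to 0.47 for Casp9, where 2532 probes were called in place of 14815. The 4 hr side of this contrast has each group on its own slide.

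The effect of BPA with KBrO3 was set against that of BPA alone in a fit over both sets. Casp4 differed at both times. On the log2 scale BPA raised it by 2.88 alone and by 0.34 on top of KBrO3 at 4 hr, a difference of -2.53 (SE 0.19, limma adjusted p = 1.39e-07), where 5.11% of probes were called lower. At 24 hr the values were 2.13 and 0.71, a difference of -1.42 (SE 0.19, adjusted p = 0.00036), where 1.35% were. This fit shares a spread estimate over both sets. Its SE is below the 0.25 that Casp4 had for BPA alone in the second set, so these p-values can overstate the precision. The starting levels differed between the sets, since the mean of Casp4 was 1.01 in the controls of the second and 3.67 in the KBrO3 arrays of the first at 4 hr. No other member was called at either time.

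Within the first set the members differed in how alike their patterns were. Casp2, Casp9 and Casp6, whose promoter windows held GC boxes, correlated at 0.979 to 0.986 with each other over the 15 arrays, and Casp1 and Casp12 at 0.880, while Casp2 and Casp1 were at 0.134. Casp4 and Casp8, whose windows held no GC box, also correlated with them, Casp4 at 0.818 with Casp9 and 0.869 with Casp6, and Casp8 at 0.731 to 0.783 with the 3. The points share 5 treatment groups and the slides, and these are descriptions. Over the 9 arrays of the second set, Casp9 and Casp6 correlated at 0.947 but Casp2 with either at 0.167 and 0.183.

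For each member the genes whose pattern over the first set was most alike were listed, with Pearson's r. Casp4 was most like Ripor3 at 0.997 and Zfp874b at 0.983, and over the second set these were at 0.857 and 0.375. Casp1 was most like Csgalnact1 (0.979) and Sntb2 (0.978), and Casp12 most like Rspo1 (0.991) and Selenom (0.990). Casp9 was most like Mkx (0.997) and Gmcl1 (0.995), Casp2 most like Cpt2 (0.997) and Mapk1ip1 (0.996), Casp6 most like Paip2 (0.996) and Tecpr1 (0.994), and Casp8 most like Lman2l (0.976) and Ddhd2 (0.974). Over the second set these 12 genes had r of -0.300 to 0.540 with their member.

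The genes that act with the caspases were counted in 5 lists. Their counts stand beside those of all probes, of which 36.3% were called higher and 35.8% lower at 4 hr after KBrO3, 32.1% and 34% at 24 hr, 41.6% and 37% at 4 hr of co-exposure, and 32.9% and 37% at 24 hr of co-exposure. The counts describe the lists, which were not tested as sets. Among 6 apoptosome and mitochondrial factors, 2 were higher and 2 lower at 4 hr after KBrO3, and 4 higher and 2 lower at 24 hr. Co-exposure gave 3 higher and 2 lower at 4 hr, and 4 higher and 2 lower at 24 hr. Apaf1, the scaffold on which Casp9 is activated, measured 0.85, 0.86 and 0.67 in the controls, -0.24, -0.24 and -0.19 after KBrO3 at 4 hr and -1.22, -1.42 and -1.12 with co-exposure. It fell 4.13-fold with co-exposure at 4 hr, in the same samples in which Casp9 was low. Cycs, which encodes cytochrome c, measured 4.85, 4.91 and 4.71 in the controls and 6.12, 6.07 and 6.10 after KBrO3 at 4 hr, and rose 2.42-fold.

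Of 7 inhibitor of apoptosis genes tested in the first set, 4 were lower at 4 hr and 4 at 24 hr after KBrO3. Co-exposure gave 4 lower and 2 higher at 4 hr, and 4 lower at 24 hr. The 2 higher include Naip6, which entered the test only through the co-exposure group at 4 hr. Birc3, which restrains caspase signalling below tumor necrosis factor receptors, measured 1.27, 1.23 and 1.09 in the controls and -0.62, -0.62 and -0.35 at 24 hr of co-exposure, 3.32-fold lower. Naip6 belongs to a family of near-identical copies. It was above background on no control array of the first set and on all 3 co-exposure arrays at 4 hr. There it was at least 1.89-fold higher. No other group of the first set had it above background on all arrays, so its call there is no separate support. That bound sets the mean of the bright group against the lowest signal well above background on each dim array.

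Among 11 death receptor and adaptor genes, 3 were higher and 6 lower at 4 hr after KBrO3, and 5 higher and 6 lower at 24 hr. With co-exposure 3 were higher and 7 lower at 4 hr, and 5 higher and 5 lower at 24 hr. Ripk1, the kinase that links death receptors to survival or to cell death through Casp8, measured -0.87, -0.84 and -0.71 in the controls and 1.82, 1.91 and 1.90 with co-exposure at 4 hr, 6.41-fold higher. Cradd, the adaptor that joins Casp2 to the PIDDosome, measured -0.40, -0.42 and -0.42 in the controls and -2.62, -2.66 and -2.52 at 4 hr after KBrO3. It fell 4.55-fold beside the 2.94-fold decrease of Casp2.

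Of 8 inflammasome genes tested in the first set, 1 was higher and 4 lower at 4 hr after KBrO3. At 24 hr 6 were lower, with a median log2 fold change of -1.34 beside -0.02 for all probes, and co-exposure gave 1 higher and 5 lower at 4 hr and 6 lower at 24 hr. Nod1, a sensor of bacterial cell wall fragments, measured 3.03, 3.06 and 3.03 in the controls and 0.67, 0.67 and 0.66 at 4 hr after KBrO3, 5.17-fold lower. Nlrp3, a sensor that recruits Casp1, measured -3.09, -3.11 and -2.57 in the controls and -4.85, -4.97 and -4.57 at 24 hr of co-exposure, 3.66-fold lower. Of 13 genes on this list, 12 were on the array and 4 of these were not tested because too few arrays were above background.

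The 8 genes that caspases cleave gave 3 higher and 3 lower at 4 hr after KBrO3 and 3 higher and 1 lower at 24 hr. Co-exposure gave 0 higher and 3 lower at 4 hr, and 5 higher and 3 lower at 24 hr. Parp1, a DNA repair enzyme, measured 0.99, 0.96 and 1.11 in the controls and 1.85, 1.95 and 1.92 at 24 hr after KBrO3, 1.85-fold higher. Gsdme, the gasdermin that opens membranes after cleavage, fell 1.98-fold at 4 hr of co-exposure, from 1.93, 1.96 and 1.83 to 0.92, 0.90 and 0.95.

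**Figure D5:**
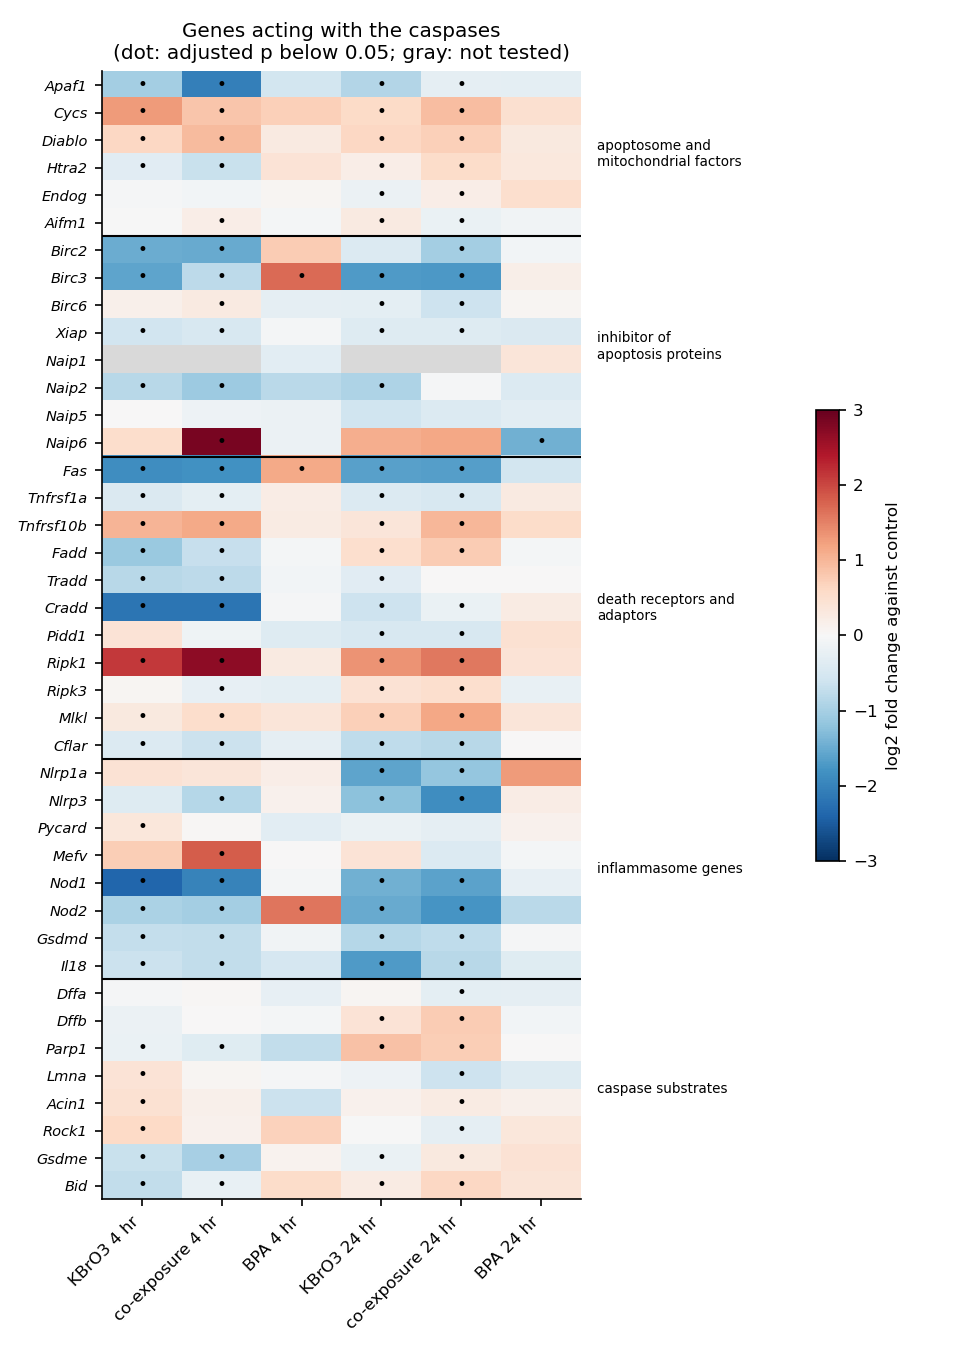
Log2 fold change against control (color) for the tested genes of the 5 lists in the 6 treatment groups, with a dot where the adjusted p was below 0.05 and gray where a gene was not tested. The columns of KBrO3 and co-exposure hold most dots, and the BPA columns hold 4.

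BPA alone called few of these genes. At 4 hr Birc3 was 3.25-fold higher, Nod2 3.04-fold and Fas 2.18-fold, beside the 7.36-fold rise of Casp4, and at 24 hr Naip6 was 2.72-fold lower. Of all probes 2.82% were called higher at 4 hr and 2.02% lower at 24 hr. These 4 were named after their values were seen. In the first set KBrO3 lowered Nod2 and Fas at 4 hr, with log2 fold changes of -0.95 and -1.86, as it lowered Casp4.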

How the data were processed

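RNA from 24 cultures was hybridized with Cy3 to Agilent whole mouse genome arrays, 1 color per array. The authors deposited fluorescence intensity values per spot as Feature Extraction gave them (12.0 in the submitters' processing notes, 9.5.3.1 and 12.0.0.7 in the file headers), detrended within the array and not normalized between arrays. The deposited value table of the series held the same intensity values. The BPA times are those of the labels, and the study's methods count them 1 hr longer.

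Processed signals were taken to log2, the array's 75th percentile was subtracted, and outlier spots were left out. A probe entered the test when 1 group or more had it well above background on all arrays, which gave 27294 probes in the first set, 31791 in the second and 27162 in both. Each set was fitted with limma 3.58.1 (lmFit and eBayes, R 4.3.3) on all its groups, with two-sided p-values and Benjamini-Hochberg adjustment. Contrasts across sets used array weights by set. The fit was tested on simulated data. Tables were made with Python 3.11.15 and pandas 2.3.3. The members and the gene lists were chosen with earlier results of these data known. Named pathway genes were the 2 of each list with the greatest change against control among those called. Alternatives were other scalings, normexp with an offset of 50 (on median raw signals in the second set, mean ones in the first), other filters, error weights, slide and replicate blocks, and leaving out each array.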

Additional observations from a re-analysis of the deposited data

Results flagged for a closer look

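The difference between co-exposure and KBrO3 alone changed from 4 to 24 hr in 6 caspases by the limma test of that change. Of all probes 25.6% were called higher in it, and with normexp background correction only Casp12 kept its call. The log2 values were 0.74 for Casp12 (adjusted p = 2.68e-05), 0.59 for Casp1 (adjusted p = 0.0335), 0.49 for Casp6 (adjusted p = 6.14e-05), 0.42 for Casp9 (adjusted p = 0.00491), 0.36 for Casp4 (adjusted p = 0.000386) and 0.21 for Casp2 (adjusted p = 0.00832). Casp12 was called lower with co-exposure at 4 hr (-0.49) and higher at 24 hr (0.25). Casp8, which was not called, was at 0.26.

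The effect of BPA on Casp4 differed with and without KBrO3, by -2.53 at 4 hr and -1.42 at 24 hr on the log2 scale. These contrasts join 2 sets of arrays whose untreated Casp4 levels were 3.81 apart, and the part of that difference in the result was not tested.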

How the results depend on the processing

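For 8 comparisons (each treatment against control and co-exposure against KBrO3), 912 of 980 member values under an alternative kept both direction and side of the threshold, 32 that were called in neither setting changed sign, 29 lost the call, 4 gained it and 3 called values turned. These counts include alternatives that could move little. The deposited value table held the same values and could change nothing. Keeping outlier spots, other filters, the replicate block and a fit of only the arrays compared could change calls but not the members' fold changes. The sign changes without a call included Casp8 for BPA at 4 hr (-0.32 to 0.29, fixed slide block) and Casp1 for BPA at 24 hr (0.72 to -0.20, normexp). The called values that turned were Casp4 (0.05) and Casp9 (0.03) at 24 hr of co-exposure with scaling to the array median, and Casp4 (0.04) with normexp. Without 1 array, Casp8 lost its call at 24 hr after KBrO3 for 4 of the arrays, as given above, and at 24 hr it was called lower with co-exposure than with KBrO3 at -0.16 without KBrO3 replicate 1. Members called at 24 hr of co-exposure went from 6 to 3 with scaling to the array median and 3 with normexp (in both Casp1 and Casp12 lower and Casp8 higher), and to 2 under the Bonferroni and fold rule.

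Normexp left 0 members called for BPA at 4 hr and 24 hr (16 and 0 of all probes were called; Casp4 was at 2.76 and 2.10), 0 of 3 for co-exposure against KBrO3 at 4 hr and 2 of 6 at 24 hr, 1 of 6 for the change of that difference, and 0 of 1 for BPA added to KBrO3 minus BPA alone at 24 hr. A fixed slide block left 0 for BPA at both times. The Bonferroni and fold rule left 0 for BPA at both times, 0 for co-exposure against KBrO3 at 4 hr and 1 at 24 hr, 4 of 7 between times after KBrO3 and 3 of 6 with co-exposure, 0 for the change of the difference, and 0 for BPA added to KBrO3 minus BPA alone at 24 hr. For the change of the difference, leaving out an array gave 5 to 7 members.

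Deviations of same-numbered arrays correlated at -0.409 to 0.165 in the first set (mean -0.0532) and at -0.449 to 0.684 in the second (mean 0.00337), and not every pair lay above 0.1, so the numbers only name arrays. The replicate block gave 2 members in place of 1 for BPA added to KBrO3 minus BPA alone at 4 hr, adding Casp9 (0.51, adjusted p = 0.0256), and 6 in place of 7 at 24 hr after KBrO3. Scaling to the array median moved the median of all probes by over 0.1 in comparisons at both times, from 0.02 to -0.12 for co-exposure against KBrO3 at 4 hr and to 0.25 at 24 hr of co-exposure, and normexp moved it to -0.44 to -0.52 for KBrO3 and co-exposure against control. Between 4 and 24 hr of co-exposure Casp12 gained a call with quantile normalization and with scaling to the array median.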
